A study of Mus musculus with 11 samples.

Results

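Axon guidance ligands and receptors were followed in resting mouse hindlimb muscle in which beta-catenin had been activated in mesenchymal progenitors. They were taken as the semaphorins, plexins, neuropilins, Slits, Robos, netrins, Unc5 receptors, ephrins and Eph receptors whose symbols stand in both count tables, and numbered 68 of 24421 symbols. By role these were 20 semaphorins, 11 plexins and neuropilins, 3 Slits, 4 Robos, 4 netrins, 4 Unc5 receptors, 8 ephrins and 14 Eph receptors. The rule used names and no measured value, but it was chosen with earlier results of these data known.

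Ctnnb1, the gene of beta-catenin, was wild-type (WT) or had 1 of its alleles floxed around exon 3 (WT/flox), in mice with a tdTomato reporter and a Cre that is expressed from Hic1 and needs tamoxifen (Hic1-CreERT2). Loss of exon 3 removes the phosphorylation sites through which beta-catenin is marked for degradation, so the protein made from that allele is stable. Progenitors, also called fibro/adipogenic progenitors, were sorted for Sca1 and tdTomato and against CD45, CD31 and alpha7 integrin, and the same gate was used for both genotypes. The sorted cells gave 3 WT and 3 WT/flox libraries, and whole lysate of the tibialis anterior gave 2 WT and 3 WT/flox libraries, each from a different animal. By the authors' sample table, progenitor libraries 74A2 (WT) and 74A1 (WT/flox) came from females, and all other libraries from males. The progenitor libraries are labelled day 14 after tamoxifen, except for WT/flox library 74A3, which is labelled day 56 like all 5 muscle libraries. Cre driven from Hic1 can act in any cell that expresses Hic1, and a lysate mixes recombined with unrecombined cells. In such a bulk sample, fewer cells of a type and less RNA per cell cannot be told apart.

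Guidance cues were named for steering growing axons, and the same proteins act between cells of vessels, muscle and connective tissue. Semaphorins bind plexins, with neuropilins as co-receptors for most secreted class 3 semaphorins. Slits bind Robos, netrins bind Dcc, neogenin and Unc5 receptors, and ephrins bind Eph receptors on a neighbouring cell, where both partners can signal.

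In WT/flox progenitors 4 guidance genes were higher than in WT, and none was lower: the co-receptor Nrp2 (7.58-fold), the secreted ligand Slit2 (4.42-fold), the membrane ligand Efnb2 (2.95-fold) and the receptor Ephb2 (2.64-fold). In whole muscle no member passed the test. The promoter-proximal sequence of these 4 genes is shown because they are the ones that moved, and because beta-catenin acts on DNA through TCF/LEF factors. Each run holds 200 bases, from 250 to 51 bases before the RefSeq gene start (GRCm38.p6), 5′ to 3′ on the strand of the gene, with capitals for a TCF/LEF core word.
Slit2: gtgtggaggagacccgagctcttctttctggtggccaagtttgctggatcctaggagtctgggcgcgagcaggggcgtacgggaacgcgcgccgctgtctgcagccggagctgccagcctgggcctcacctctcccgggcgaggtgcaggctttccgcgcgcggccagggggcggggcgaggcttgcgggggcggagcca
Efnb2: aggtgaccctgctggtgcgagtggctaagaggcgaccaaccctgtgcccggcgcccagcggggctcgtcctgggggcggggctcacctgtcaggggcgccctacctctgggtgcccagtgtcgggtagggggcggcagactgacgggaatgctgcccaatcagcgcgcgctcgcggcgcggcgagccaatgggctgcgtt
Nrp2: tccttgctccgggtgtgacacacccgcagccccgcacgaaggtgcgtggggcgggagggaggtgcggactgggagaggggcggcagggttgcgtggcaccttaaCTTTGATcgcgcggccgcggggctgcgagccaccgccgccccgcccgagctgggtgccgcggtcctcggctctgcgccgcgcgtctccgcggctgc
Ephb2: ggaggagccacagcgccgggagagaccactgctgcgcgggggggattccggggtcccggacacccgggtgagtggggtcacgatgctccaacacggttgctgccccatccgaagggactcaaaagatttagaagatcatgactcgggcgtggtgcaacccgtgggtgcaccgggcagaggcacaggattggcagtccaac

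The runs lie at chr5:47982905-47983104 (plus strand, Slit2), chr8:8661293-8661492 (minus strand, Efnb2), chr1:62703067-62703266 (plus strand, Nrp2) and chr4:136836063-136836262 (minus strand, Ephb2). The words searched on both strands were CTTTGAA, its variant CTTTGAT, the word CTTTGTA and its variant CTTTGTT. They differ in their last letters, so that 1 position can hold 1 of them. Within the 250 bases before the start, Nrp2 held 1 word, CTTTGAT, beginning 146 bases before the start, and Slit2, Efnb2 and Ephb2 held none. Over all promoters that RefSeq gave, 4874 of 32851 (14.8%) held a word, as did 6 of the 75 promoters (8%) found for 59 of the 68 members. The other 5 such members were Sema3d, Sema3e, Sema6d, Efna4 and Epha2. Member promoters were richer in G and C, with a median of 64.4% against 52.4% over all promoters, and Nrp2 reached 72.4%. A word in this window is a match of letters, and binding was not measured.

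Depth was 13119843 to 16805238 counts for the sorted cells and 16892158 to 19449227 counts for the lysates. The members took 0.367 to 0.453% of progenitor counts and 0.0682 to 0.0914% of muscle counts, with 58 to 63 of the 68 detected in a library. The floxed gene itself did not pass the test in progenitors (Ctnnb1, log2 fold change -0.26, SE 0.17, adjusted p = 0.673, edgeR). It stood at 459, 460 and 526 CPM in WT against 404, 378 and 424 CPM in WT/flox, lower without overlap. Counts per gene do not resolve the deleted exon. Axin2, a direct target of beta-catenin signalling, stood at 4.07, 3.64 and 2.71 CPM in the WT and at 136, 170 and 156 CPM in the WT/flox progenitors (edgeR adjusted p = 4.4e-06). The authors' sample table calls the lysates FAPs, in conflict with the labels, and the fibre genes Myh4 and Atp2a1 were at 36142 ± 595 and 29466 ± 519 CPM there (SD, n = 2 WT).

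Levels are TMM-scaled CPM, which are counts relative to the scaled size of the library, and are divided by exon length in kb where genes are set side by side. A member is said to have risen or fallen where the edgeR quasi-likelihood test, adjusted by Benjamini-Hochberg over all genes tested, gave under 0.05. The labels name distinct animals, so that p-values measure the spread between animals.

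In progenitors 54 of the 68 members had enough counts to be tested. Of these 4 (7.41%) were higher in WT/flox, against a background of 2.34% of 12392 genes, or 3.66% in either direction. At an unadjusted p under 0.05 there were 16 members (29.6%), 11 higher and 5 lower, against 12.5% of all genes. The WT and WT/flox libraries did not overlap for 18 members (33.3%), 9 higher and 9 lower, against 16.9% of all genes. The median log2 fold change of the tested members was -0.07 and that of all genes 0.00, while 31 members (57.4%) lay within 0.5 of 0 on the log2 scale against 83.9% of all genes.

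**Figure D1:**
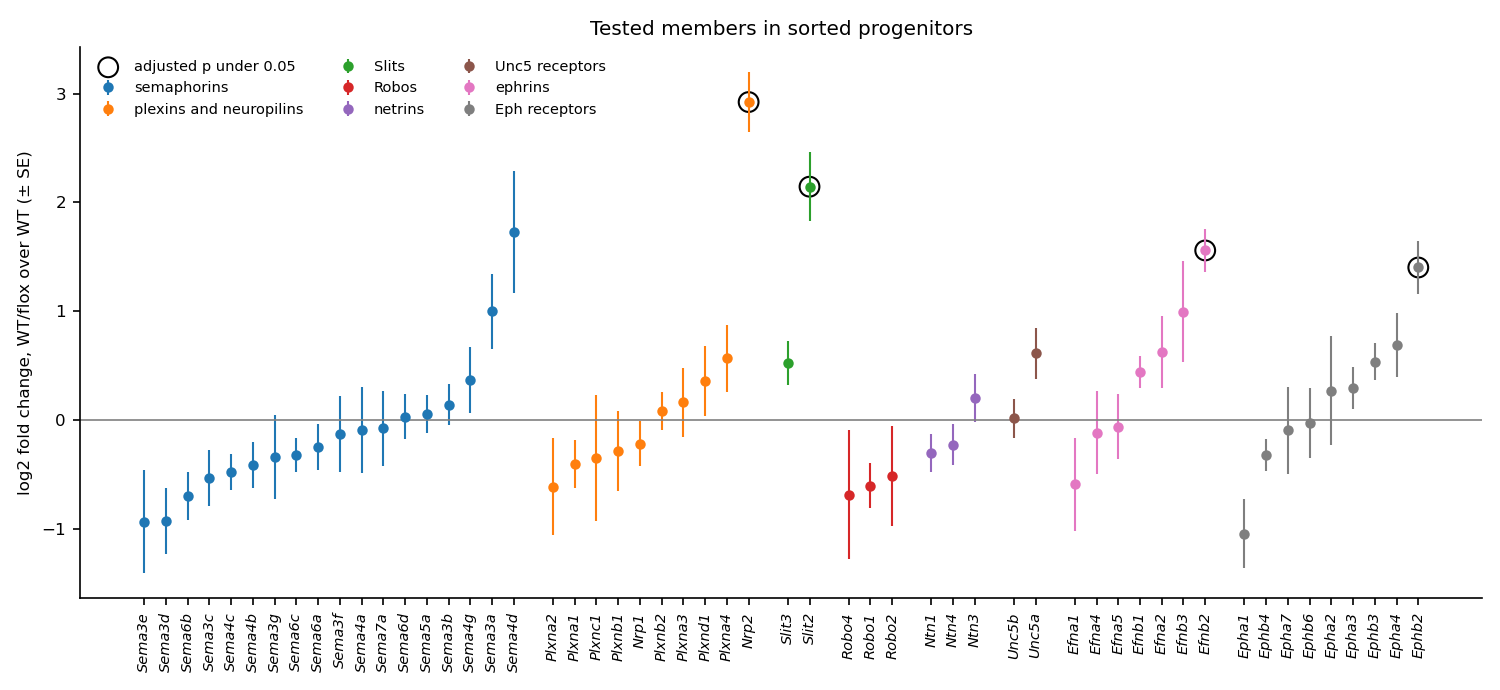
Log2 fold change of WT/flox over WT in progenitors (y axis, bars for the standard error) for each of the 54 tested guidance genes (x axis), coloured by role, with a ring around the genes at an adjusted p under 0.05. Nrp2, Slit2, Efnb2 and Ephb2 carry the rings, with Nrp2 highest at 2.92.

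Among the ligands, Slits are secreted and bind Robo receptors. Slit2 (ENSMUSG00000031558, chromosome 5, 47983138 to 48307733, GRCm38) measured 3.16, 3.04 and 3.41 CPM in WT progenitors 72B8, 74A2 and 73C3 and 18.4, 7.81 and 16.5 CPM in WT/flox progenitors 74A1, 72B7 and 74A3. The WT libraries lay close together, the WT/flox libraries were all higher, and 72B7 was the lowest of them. The log2 fold change was 2.15 (SE 0.32, edgeR adjusted p = 0.00432). Slit3, the dominant Slit, stood at 725, 521 and 536 CPM in WT against 746, 900 and 920 CPM in WT/flox. Its ranges did not overlap, but the log2 fold change of 0.53 (SE 0.20) missed the edgeR threshold (adjusted p = 0.279). Per kb, Slit2 was 0.104 to 0.152% of the summed Slits in WT and 0.206 to 0.585% in WT/flox progenitors, so Slit3 remained nearly the whole of the Slit signal. Slit1 had 1 count over the 6 progenitor libraries.

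Ephrins are membrane-bound ligands, of which the B type spans the membrane. Efnb2 (ENSMUSG00000001300, chromosome 8, 8617434 to 8661242), a B-type ephrin known for its role in arteries, measured 15, 9.99 and 12.4 CPM in WT progenitors 72B8, 74A2 and 73C3. In WT/flox it measured 42.3, 32.1 and 35.6 CPM in 74A1, 72B7 and 74A3. Every WT/flox library was more than the highest WT library, and the log2 fold change was 1.56 (SE 0.20, edgeR adjusted p = 0.00191). Efnb1, the most abundant ephrin per kb, was at 31.4, 35.5 and 29.7 CPM in WT against 41.0, 44.7 and 45.8 CPM in WT/flox. Those ranges did not overlap either, with a log2 fold change of 0.44 (SE 0.15) that missed the edgeR threshold (adjusted p = 0.188). Per kb, Efnb2 made up 12.1 to 18.6% of the B-type ephrins in WT and 24.9 to 33.5% in WT/flox progenitors. Of the A-type ephrins, which are held by a lipid anchor, Efna5 was the most abundant per kb, at 13.3 ± 2.85 CPM in WT against 12.7 ± 5.16 CPM in WT/flox (SD, n = 3 each).

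Semaphorins were the largest class, and 0 of its 18 tested members passed the edgeR test, with 5 at an unadjusted p under 0.05. Sema3c, a secreted semaphorin that signals through neuropilins, had the highest level of all members per kb in WT progenitors. In WT/flox progenitors Slit3 was the highest per kb. Sema3c led the semaphorins in both genotypes. Sema3c stood at 928, 567 and 930 CPM in WT against 669, 413 and 602 CPM in WT/flox progenitors, with ranges that overlapped (log2 fold change -0.53, SE 0.26, edgeR adjusted p = 0.474). It made up 83.7 to 85.5% of the class 3 semaphorins per kb in WT and 75.8 to 81.0% in WT/flox. Sema4c, a membrane semaphorin that binds plexin B receptors, was at 138, 119 and 118 CPM in WT against 81.3, 106 and 82.4 CPM in WT/flox. Its groups did not overlap, yet the log2 fold change of -0.48 (SE 0.17) did not pass (edgeR adjusted p = 0.217).

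Further semaphorins, named after their values were seen, went in both directions without passing. Sema3d had a log2 fold change of -0.93 (SE 0.30) and Sema6b of -0.69 (SE 0.22), both with WT/flox libraries below the WT libraries. Sema3a was at 13.6 CPM in 74A1 and 5.16 CPM in 72B7, a spread among the WT/flox libraries that reached into the WT range of 3.57 to 5.59 CPM (log2 SE 0.34). Sema4d, an immune and bone semaphorin, had a log2 fold change of 1.73 (SE 0.56) at low levels of 0.265 to 1.66 CPM in WT against 1.82 to 4.33 CPM in WT/flox. The edgeR adjusted p of these 4 genes ran from 0.162 for Sema6b to 0.205 for Sema3a. Over the 18 tested semaphorins 12 had a negative and 6 a positive log2 fold change, with a median of -0.18.

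Netrins are secreted relatives of laminin. Ntn1, the founding netrin, stood at 599, 477 and 520 CPM in WT against 456, 423 and 417 CPM in WT/flox progenitors, lower without overlap but by a log2 fold change of -0.30 (SE 0.17, edgeR adjusted p = 0.606). Ntn4 was at 216, 147 and 163 CPM in WT against 134, 162 and 155 CPM in WT/flox, with overlapping ranges. Ntn1 held 61.5 to 64.7% of the netrins per kb in WT and 59.6 to 65.9% in WT/flox, which overlapped. None of the 3 tested netrins passed the edgeR test, and none was under 0.05 before adjustment.

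Among the receptors, neuropilins signal mainly through plexins or vascular growth factor receptors. Nrp2 (ENSMUSG00000025969, chromosome 1, 62703285 to 62818695) measured 31.3, 18.0 and 21.4 CPM in WT progenitors 72B8, 74A2 and 73C3. In WT/flox progenitors 74A1, 72B7 and 74A3 it measured 128, 176 and 231 CPM. The groups were far apart, and the day 56 library, 74A3, was the highest. The log2 fold change was 2.92 (SE 0.28, edgeR adjusted p = 3.4e-04). Nrp1, its relative, was at 223, 195 and 307 CPM in WT against 212, 183 and 230 CPM in WT/flox, with overlapping ranges (log2 fold change -0.21, SE 0.20, edgeR adjusted p = 0.875). Per kb, Nrp2 made up 5.46 to 10.4% of the neuropilins in WT and 33.3 to 45.4% in WT/flox progenitors. The neuropilin pair thus went from mostly Nrp1 to a mixture in which Nrp1 was still the larger share.

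**Figure D2:**
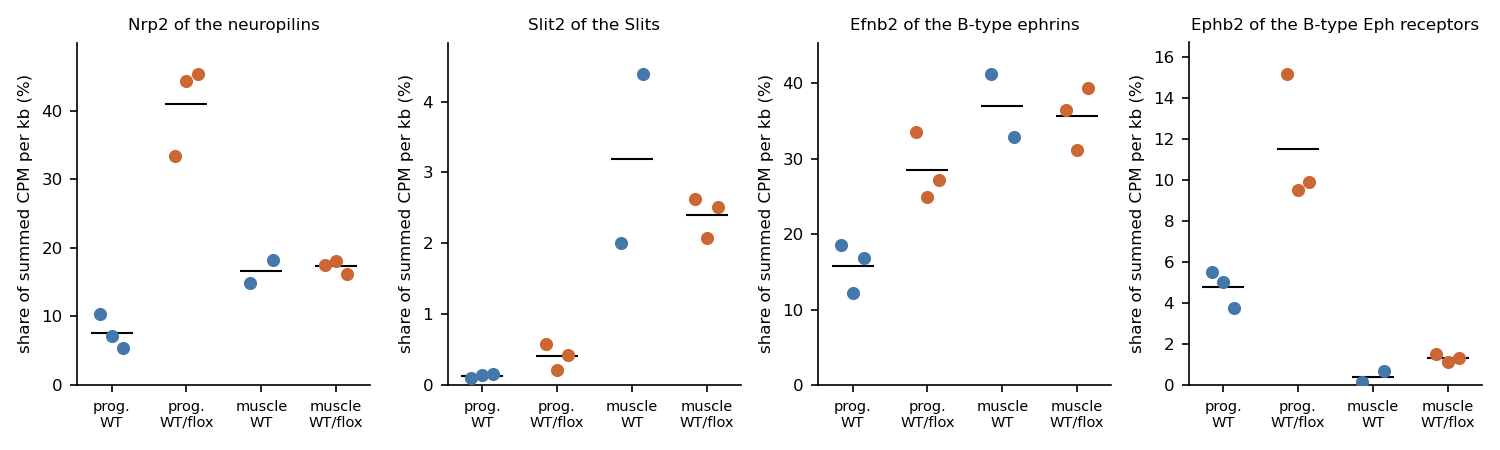
Share of each gene in the summed CPM per kb of its own family (y axis, percent) per library in progenitors and muscle by genotype, with bars at the group means. Nrp2 lies at 5.46 to 10.4% in WT progenitors and at 33.3 to 45.4% in WT/flox progenitors, while its muscle shares lie between 14.9 and 18.2%.

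None of the plexins, the signalling receptors for semaphorins, passed the test. Plxna1 was the most abundant per kb, at 361, 311 and 222 CPM in WT against 216, 190 and 270 CPM in WT/flox, and its ranges overlapped. Plxnb2, a receptor for class 4 semaphorins, was at 205 ± 36.0 CPM in WT against 217 ± 9.01 CPM in WT/flox (SD, n = 3 each). Of the 10 tested plexins and neuropilins, 1 passed the edgeR test, Nrp2, and the ranges of the other 9 overlapped between genotypes.

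Robo1, the main Slit receptor here, held 93.7 to 97.2% of the Robo signal per kb in WT and 93.8 to 96.8% in WT/flox. It was at 140, 108 and 81.9 CPM in WT against 71.6, 64.9 and 81.2 CPM in WT/flox progenitors. WT library 73C3 and WT/flox library 74A3 nearly met, and the log2 fold change of -0.60 (SE 0.21) missed the edgeR threshold (adjusted p = 0.208). Robo4, an endothelial Robo, was at 0.397 to 2.11 CPM in WT against 0.531 to 1.11 CPM in WT/flox. The Unc5 receptors, which bind netrins, were low: Unc5b was at 14.5 ± 0.851 CPM in WT against 14.7 ± 2.53 CPM in WT/flox (SD, n = 3 each). Unc5a was at 5.18 to 9.20 CPM in WT against 10 to 11.9 CPM in WT/flox, higher without overlap but with an edgeR adjusted p of 0.276.

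Eph receptors are receptor tyrosine kinases, and the B type binds mainly B-type ephrins. Ephb2 (ENSMUSG00000028664, chromosome 4, 136647539 to 136835988) measured 14.2, 14.6 and 10.6 CPM in WT progenitors 72B8, 74A2 and 73C3. In WT/flox it measured 47.5, 29.0 and 27.7 CPM in 74A1, 72B7 and 74A3. The lowest WT/flox library was well above the highest WT library, and 74A1 stood above its group. The log2 fold change was 1.40 (SE 0.24, edgeR adjusted p = 0.0106). Ephb2 took 3.75 to 5.52% of the B-type Eph receptors per kb in WT and 9.51 to 15.2% in WT/flox progenitors.

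The more abundant B-type receptors went in different directions. Ephb4, the venous partner of Efnb2, was at 52.6, 63.2 and 57.1 CPM in WT against 49.2, 46.2 and 43.0 CPM in WT/flox (log2 fold change -0.32, SE 0.15, edgeR adjusted p = 0.429). Ephb3 was at 29.2, 38.6 and 37.5 CPM in WT against 48.3, 46.6 and 58.0 CPM in WT/flox (log2 fold change 0.54, SE 0.17, edgeR adjusted p = 0.156). Neither pair of ranges overlapped, and neither passed. Epha1, chosen after its values were seen, had the largest fall of point estimates among members, from 9.19, 4.10 and 8.53 CPM in WT to 3.23, 3.46 and 3.87 CPM in WT/flox (log2 fold change -1.04, SE 0.32, edgeR adjusted p = 0.134). Epha4 had a log2 fold change of 0.69 (SE 0.29, edgeR adjusted p = 0.365), with ranges that overlapped.

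**Figure D3:**
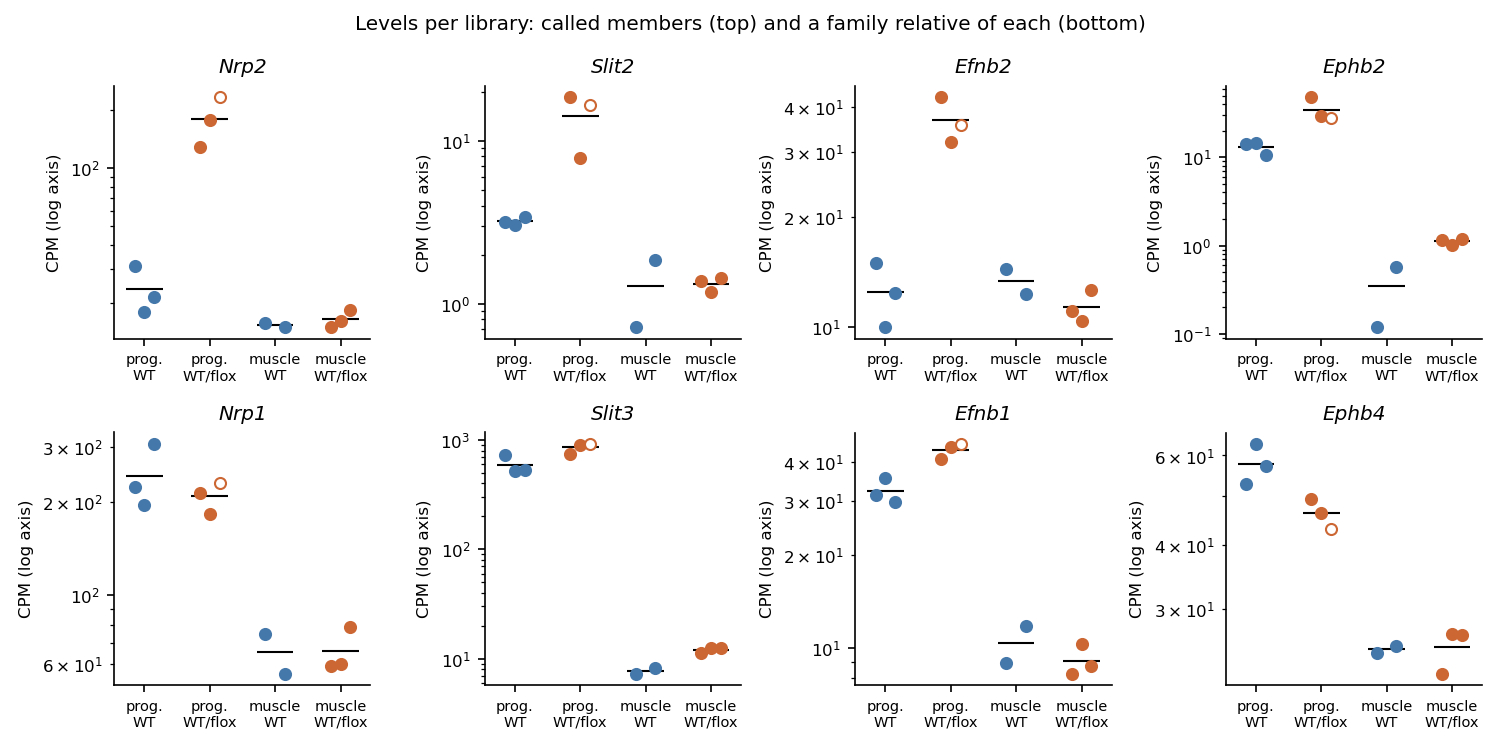
TMM-scaled CPM (y axis, log scale) of the 4 genes that rose in progenitors and of a relative of each (Nrp1, Slit3, Efnb1 and Ephb4), per library, for progenitors and muscle by genotype, with bars at the group means and an open circle for the progenitor library labelled day 56. Nrp2 spans 18.0 to 31.3 CPM in WT against 128 to 231 CPM in WT/flox progenitors.

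The 4 rises were also seen without the day 56 library. Without 74A3, the log2 fold changes were 2.69 for Nrp2, 2.03 for Slit2, 1.58 for Efnb2 and 1.54 for Ephb2, and all 4 passed. Among animals whose identifiers begin with 72B, 1 WT and 1 WT/flox, the log2 differences were 2.49, 1.30, 1.1 and 1.02 in the same order. Among those beginning with 74A, 1 WT and the mean of 2 WT/flox, they were 3.32, 2.52, 1.96 and 1.37. The 74A values include the day 56 library, 74A3, from a male, while 74A2 and 74A1 are from females. What the identifiers stand for is not stated, and these values have no test.

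Of the 14 members not tested in progenitors, 5 had 0 counts in all 6 libraries: Epha6, Epha8, Epha10, Unc5d and Robo3. The highest total among the 14 was 62 counts, and no member had 0 counts in 1 genotype against 10 or more in the other. A further 3 untested genes are named after their values were seen. Ephb1 had 7 counts in all WT libraries together and 55 in WT/flox, 42 of them in 74A1. Unc5c had 7 against 32 counts, and Sema5b had 40 against 8.

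Markers of other cells also differed between the sorted genotypes. The 10 endothelial markers summed to 231 to 257 CPM in WT against 197 to 227 CPM in WT/flox, led by Eng with means of 215 and 186 CPM and by Cdh5. None of the 10 passed the edgeR test and none was at 0, and 8 of the 10 log2 fold changes were negative. The sum is mostly Eng, and without it the WT libraries lay apart: Cdh5 was at 11.2, 1.79 and 9.06 CPM in WT 72B8, 74A2 and 73C3 against 4.85 to 5.94 CPM in WT/flox. Pecam1 was likewise lowest in 74A2, at 2.32 CPM. Among the WT libraries, 74A2 was also the lowest for Nrp2, Efnb2, Slit2, Slit3, Nrp1, Sema3c, Ntn1 and Ntn4. It was the highest of them for Ephb2, Ephb3, Ephb4 and Efnb1. The 8 mural markers summed to 182 to 281 CPM in WT against 111 to 172 CPM in WT/flox, led by Cspg4, which fell from a mean of 147 to 31.1 CPM, and Abcc9, at 29.8 and 43.6 CPM. Of these 8 genes 5 had positive and 3 negative log2 fold changes, with a median of 0.13. The 7 tenocyte markers summed to 1103 to 1642 CPM and 1722 to 2206 CPM, led by Thbs4 and Fmod, with Mkx and Thbs4 higher and 5 of the 7 with negative log2 fold changes. None of these 3 sums overlapped between the genotypes. The 10 glial markers summed to 35.9 to 47.3 CPM and 26.9 to 36.5 CPM, led by Cdh19 and Prx, with 5 of 7 tested log2 fold changes negative, and none passed. The 8 muscle stem cell markers summed to 63.0 to 75.9 CPM and 40.9 to 59.3 CPM, also without overlap. They were led by Vcam1 and Msc, with means of 38.7 and 17.0 CPM in WT, and Myf5, Cdh15 and Calcr were at 0 in all 6 libraries. Pax7 had 0, 0 and 1 counts in WT 72B8, 74A2 and 73C3. In WT/flox 74A1, 72B7 and 74A3 it had 1, 0 and 1 counts. Of the 4 stem cell markers tested, 1 had a positive and 3 a negative log2 fold change, and none passed. The 10 immune markers summed to 6.70 to 8.27 CPM and 5.06 to 15 CPM, led by Cd68 and Lyz2. The sums of fibre, dissociation and progenitor markers overlapped between the genotypes. The 10 fibre markers, led by Acta1 and Tnnt3, summed to 22.1 to 149 CPM and 21.4 to 28.5 CPM, with 9 of 9 tested log2 fold changes negative and a median of -1.77. That overlap rests on WT library 72B8, with Acta1 at 5.80 CPM there, at 21.4 and 47.8 CPM in WT 74A2 and 73C3 and at 4.99 to 7.20 CPM in WT/flox. The 15 dissociation genes, led by Jun and Fos, summed to 6409 to 15556 CPM and 7912 to 13156 CPM. The 10 progenitor markers summed to 100395 to 109010 CPM and 100158 to 116282 CPM, led by Gsn and Col3a1, with Col1a1 higher. The part of the endothelial, mural, tenocyte, muscle stem cell, glial and fibre marker differences in the 4 rises was not tested.

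Genes that work beside the members were read from lists of binding partners and of cytoplasmic effectors. Of 22 tested partners, 3 rose and 1 fell in WT/flox progenitors, where 2.34% of all genes rose and 3.66% changed in either direction. Nfasc, an adhesion protein of axons and their sheaths, went from 2.49, 2.18 and 1.53 CPM to 15.2, 11.6 and 21.5 CPM (log2 fold change 2.97, SE 0.30, edgeR adjusted p = 4.7e-04). Chl1, an L1-type adhesion protein, went from 0.265 to 0.471 CPM in WT to 1.25 to 4.11 CPM in WT/flox (log2 fold change 2.74, SE 0.53, edgeR adjusted p = 0.0199). Cdon, a hedgehog co-receptor that also associates with neogenin, went from 385, 319 and 392 CPM to 957, 976 and 1155 CPM (log2 fold change 1.49, SE 0.19, edgeR adjusted p = 0.00183). These 3 genes had WT/flox libraries that all lay above the WT libraries. Rgmb, a ligand of neogenin, fell from 178, 191 and 152 CPM to 97.1, 92.6 and 96.1 CPM (log2 fold change -0.87, SE 0.15, edgeR adjusted p = 0.0131). Neogenin itself, Neo1, was at 162 ± 22.3 CPM in WT against 139 ± 20.7 CPM in WT/flox (SD, n = 3 each), and the netrin receptor Dcc had 0 or nearly 0 counts in every library.

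Of 55 tested effectors, 1 rose and 1 fell, a share near the 3.66% of all genes, so the count says nothing particular of effectors. Dpysl3, a collapsin response mediator that acts on the cytoskeleton behind semaphorin receptors, went from 376, 349 and 340 CPM in WT to 627, 684 and 953 CPM in WT/flox progenitors (log2 fold change 1.09, SE 0.20, edgeR adjusted p = 0.0168). Tiam2, an activator of the GTPase Rac, fell from 8.24 to 9 CPM in WT to 4.35 to 4.47 CPM in WT/flox (log2 fold change -0.96, SE 0.20, edgeR adjusted p = 0.0263). The remaining 53 did not pass, and the median log2 fold change over the 55 was 0.00. In muscle Dpysl3 was at 10.6 and 14.9 CPM in WT against 30.7, 23.9 and 27.0 CPM in WT/flox, without overlap, and missed the edgeR threshold there (log2 fold change 1.1, SE 0.20, adjusted p = 0.0691).

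In whole muscle 52 members were tested, and edgeR called 0, against a background of 0.727% of 12654 genes. DESeq2 and limma voom also called 0. At an unadjusted p under 0.05 there were 7 members (13.5%) by edgeR, 4 by DESeq2 and 6 by limma voom, against 9.69% of all genes by edgeR. Libraries did not overlap between genotypes for 12 members (23.1%), against 25.3% of all genes. The median log2 fold change was 0.07. By these counts the members lay near the background in muscle. Of the 16 members not tested there, Efna3, Epha8 and Robo3 had 0 counts in all 5 libraries, and the highest total was 34 counts.

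Per kb, Sema6c and Sema7a led the semaphorins of muscle. Sema3c, which led in the sorted cells, came next at 55.9 and 41.6 CPM in WT against 55.1, 62.7 and 59.8 CPM in WT/flox muscle, with overlap. Sema6c, a membrane semaphorin, was at 167 and 193 CPM in WT against 193, 203 and 143 CPM in WT/flox muscle. Sema7a, a lipid-anchored semaphorin, was at 24.5 and 31.5 CPM in WT against 30.7, 35.1 and 31.6 CPM in WT/flox. Plxnd1, a vascular plexin, was at 49.3 ± 8.96 CPM in WT (n = 2) and 45.8 ± 3.75 CPM in WT/flox (SD, n = 3). All of these ranges overlapped between genotypes. Unc5a was at 23.4 and 22.9 CPM in WT against 23.1, 27.4 and 24.7 CPM in WT/flox, and Ephb4 at 24.9 ± 0.542 CPM in WT against 25.2 ± 2.51 CPM in WT/flox. These 2 receptors lay at like levels in both genotypes. The next most abundant of their classes were Nrp1 at 65.3 ± 13.4 and 65.9 ± 11 CPM, Unc5b at 8.74 ± 3.12 and 6.73 ± 0.890 CPM, Efnb1 at 10.4 ± 2.03 and 9.11 ± 1.06 CPM and Epha2 at 5.52 ± 0.916 and 4.34 ± 1.16 CPM (SD, WT n = 2 and WT/flox n = 3), all with overlapping ranges. The netrins Ntn1, at 14.3 ± 2.79 and 13.9 ± 1.81 CPM, and Ntn4, at 4.73 ± 0.254 and 6.19 ± 0.492 CPM, did not pass either. Ntn4 was higher without overlap (log2 fold change 0.39). Robo1, after Robo4 the most abundant Robo per kb, was at 0.898 and 1.22 CPM in WT against 1.05, 1.28 and 2.39 CPM in WT/flox, with overlap. The Slits other than Slit3 were at few counts in muscle. Slit1, hardly seen in progenitors, was at 1.08 and 1.41 CPM in WT against 0.896, 0.747 and 0.766 CPM in WT/flox, lower without overlap but not past the edgeR test (adjusted p = 0.619). Efna1, an A-type ephrin, was at 14.2 and 12.8 CPM in WT against 17.8, 19.2 and 15.7 CPM in WT/flox, higher without overlap but not past the edgeR test (log2 fold change 0.38, SE 0.16, adjusted p = 0.488).

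The genes that rose in progenitors showed a mixed picture in muscle. Nrp2 was at 15.9 and 15.1 CPM in WT against 15.1, 16.1 and 18.5 CPM in WT/flox muscle (log2 fold change 0.10, SE 0.15). Efnb2 was at 14.4 and 12.3 CPM in WT against 11.1, 10.4 and 12.6 CPM in WT/flox (log2 fold change -0.23, SE 0.17). Slit2 was at 0.718 and 1.86 CPM in WT against 1.37, 1.17 and 1.44 CPM in WT/flox (log2 fold change 0.05, SE 0.42). The genotypes overlapped for these 3 genes. Ephb2 was at 0.120 and 0.577 CPM in WT against 1.16, 1.01 and 1.20 CPM in WT/flox, which did not overlap. Its log2 fold change of 1.70 (SE 0.55, edgeR adjusted p = 0.323) rests on 2 and 9 counts in the WT libraries, and ranged from 0.96 without 73A5 to 3.16 without 73A7.

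Slit3 and Ephb2 were the 2 of 49 members tested in both materials that were under an unadjusted p of 0.05 in both, with the same sign. The background is 247 of 11506 genes, or 2.15%. Slit3 was at 7.30 and 8.20 CPM in WT against 11.2, 12.4 and 12.5 CPM in WT/flox muscle (log2 fold change 0.64, SE 0.16, edgeR adjusted p = 0.194). Its muscle difference was thus about as large as its progenitor difference, and neither passed. The sign matched between materials for 27 of the 49 members (55.1%) and for 53.7% of all genes. Across the 49 members the 2 sets of log2 fold changes had a Pearson correlation of 0.19, and 0.28 across all genes, as a description over genes that share their libraries.

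**Figure D4:**
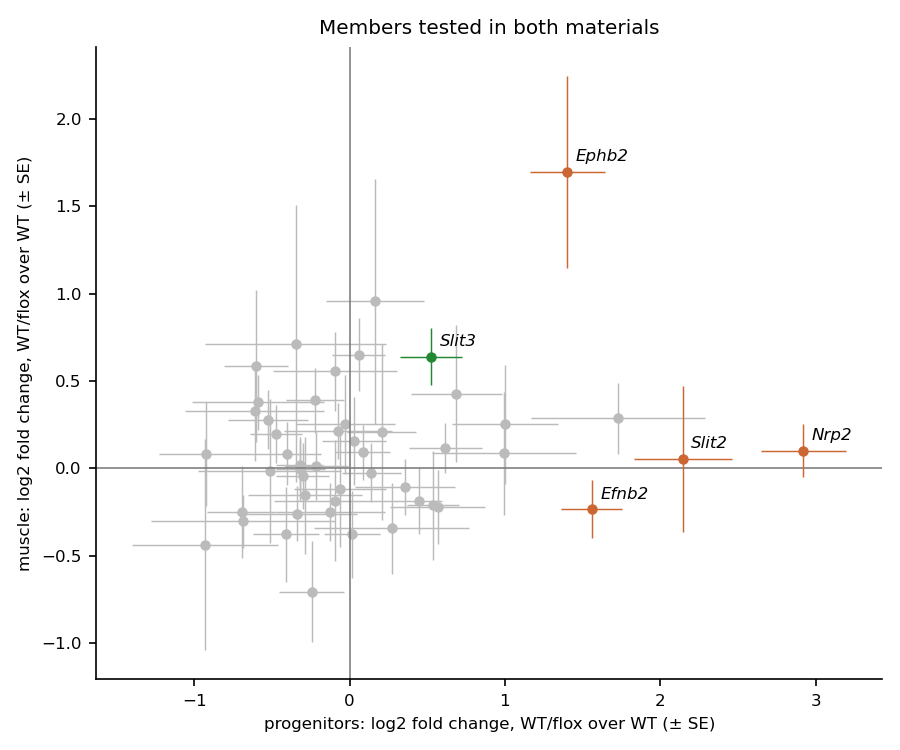
Log2 fold change of WT/flox over WT in progenitors (x axis) against that in whole muscle (y axis) for the 49 members tested in both, with bars for the standard error, the risen genes in orange and Slit3 in green. Nrp2 lies at 2.92 and 0.10, Efnb2 at 1.56 and -0.23, and Ephb2 at 1.40 and 1.70.

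In muscle the 10 progenitor markers summed to 1442 to 2438 CPM in WT against 2432 to 2844 CPM in WT/flox, with 10 of 10 log2 fold changes positive and 0 called. Slit3, Sema5a and Ephb2, which are all many times higher in sorted WT progenitors than in WT muscle, were among the 5 members with higher values at an unadjusted p under 0.05. The other 2, Efna1 and Epha7, were the other way round, 4.09 and 2.87 times higher in WT muscle. Of 58 members, 36 were higher in all WT progenitor libraries than in WT muscle, so a majority of this kind is usual among members. Ntn1, Plxna1 and Plxnb2, also many times higher in WT progenitors, had muscle log2 fold changes of -0.04, 0.08 and 0.09. Sema5a, named after its values were seen, was at 5.09 and 3.65 CPM in WT against 6.90, 6.62 and 7.08 CPM in WT/flox (log2 fold change 0.65, SE 0.21). The other members at an unadjusted p under 0.05, also named after the fact, were Epha7 (log2 fold change 0.56) and Efna1 on the higher side, and Plxnb3 (-0.77) and Sema6a (-0.71) on the lower side. The endothelial markers summed to 462 to 475 CPM in WT against 378 to 381 CPM in WT/flox muscle, with 9 of 10 log2 fold changes negative and 0 called. Muscle stem cell markers summed to 157 to 194 CPM against 115 to 136 CPM, and glial markers to 126 to 148 CPM against 108 to 123 CPM, both without overlap. The stem cell sum was mostly Itga7, with means of 131 and 81.8 CPM, while Cdh15 had means of 23.9 and 26.6 CPM. Of the 7 stem cell markers tested, 3 had positive and 4 negative log2 fold changes, with a median of -0.02. Of the 10 glial markers, 3 were positive and 7 negative. The sums of mural, immune, tenocyte and fibre markers overlapped, with 7 of 8 mural and 8 of 10 fibre log2 fold changes negative. Robo4, the endothelial Robo, was at 15.4 and 16.1 CPM in WT against 13.2, 13.7 and 11.4 CPM in WT/flox (log2 fold change -0.30, SE 0.15, edgeR adjusted p = 0.587). The part of these marker differences in the members' values was not tested. The WT and WT/flox muscles carry identifiers with different beginnings, 73A and 71B, so that genotype and whatever these stand for cannot be told apart.

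A fit over all 11 libraries tested whether the effect of genotype differed between materials. It called 2 of the 58 members tested, against 0.769% of 13781 genes. The difference, as muscle minus progenitor log2 fold change, was -2.77 for Nrp2 (SE 0.34, edgeR adjusted p = 0.00149) and -1.74 for Efnb2 (SE 0.27, edgeR adjusted p = 0.00731). For Slit2 it was -2.03 (SE 0.56), which did not pass in edgeR (adjusted p = 0.151). For Ephb2 it was 0.34 (SE 0.57, edgeR adjusted p = 0.984), an estimate whose error leaves room for a difference either way. Material and most of the difference in day change together in this fit. The 10 progenitor markers summed to 100395 to 109010 CPM in sorted WT cells and to 1442 to 2438 CPM in WT muscle. A rise confined to progenitors would be diluted in a lysate. Dilution and a different response of the gene cannot be told apart by this term.

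Levels were last compared between the materials in the WT animals alone. Of 58 members, the 3 WT progenitor libraries were all higher than both WT muscle libraries for 36 and lower for 15, and overlapped for 7. Each table was scaled on its own and the days differ, so these are descriptions with no test. The same count over all genes was not made, so these numbers do not set the members apart from other genes. Slit3 averaged 594 CPM in progenitors and 7.75 CPM in muscle, a ratio of 76.7. The same ratio was 104 for Robo1, its receptor, 45.8 for Sema5a, 37.2 for Ntn1 and 16.6 for Sema3c. In the other direction, muscle was 46.7 times progenitors for Sema4d, 12.5 times for Sema7a, 12.3 times for Robo4, 5.85 times for Sema6c and 4.09 times for Efna1. Efnb2 overlapped between the materials, at 12.4 CPM in progenitors and 13.4 CPM in muscle, and Nrp2 was at 23.6 and 15.5 CPM.

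**Figure D5:**
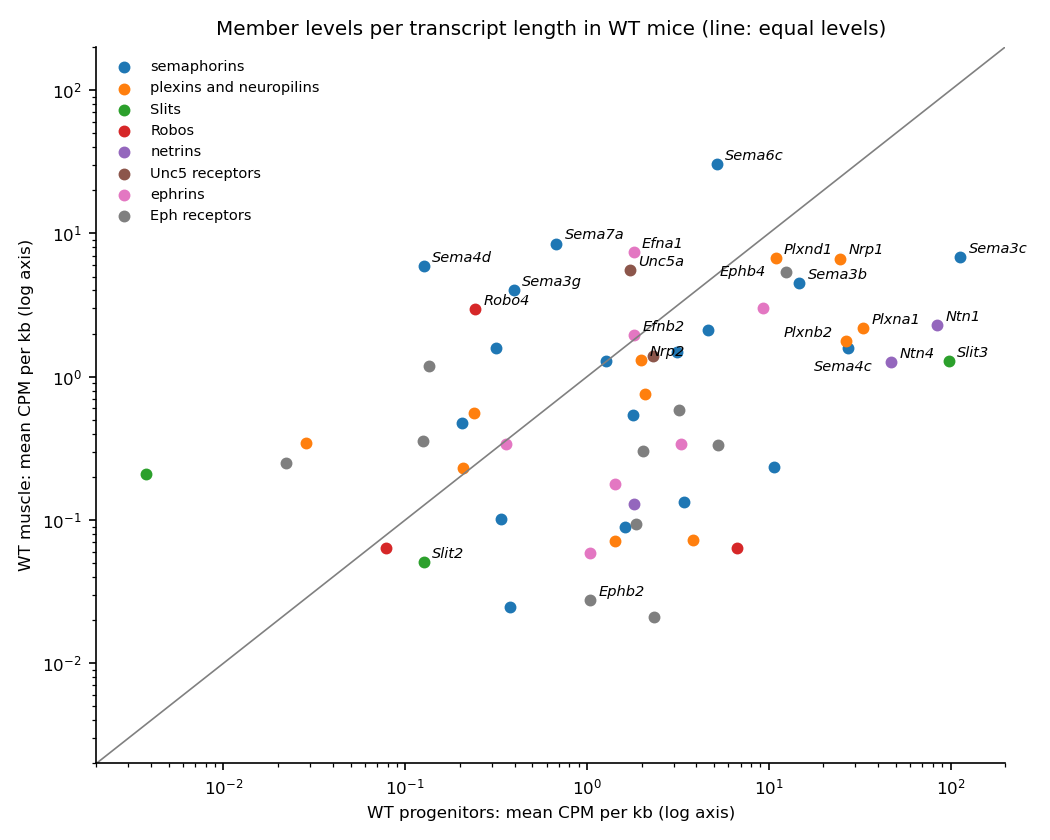
Mean TMM-scaled CPM per kb of 58 guidance genes in WT progenitors (x axis, log scale) and WT whole muscle (y axis, log scale), each table scaled on its own. Points below the line of equal level are higher in progenitors, as for Slit3 at 98.0 against 1.28 CPM per kb, and points above it are higher in muscle, as for Sema6c at 5.18 against 30.3 CPM per kb.

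Where a member overlaps a gene on the opposite strand, reads of the 2 cannot be told apart, because the strand setting of the counting is not given in the sources used here. GENCODE lists such a gene for Nrp2 (Gm29083), Slit2 (4930518C09Rik), Slit3 (Gm12123), Robo1, Ntn1, Ntn4, Sema3a, Sema3d, Sema4c, Sema4d, Sema5a, Plxna1, Epha1, Epha7, Ephb4 and Unc5a, and for Ctnnb1, Axin2, Nfasc, Chl1, Cdon and Tiam2. Sema3e, Sema5b, Sema6d, Efna4, Unc5c, Ephb1 and Neo1 also overlap such a gene. GENCODE lists none for Efnb2, Ephb2, Nrp1, Sema3c or Dpysl3.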

How the data were processed

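RNA was sequenced from sorted progenitors and whole tibialis anterior lysate, as stranded poly(A) libraries read as paired 43 bp ends, per the labels' protocols. The deposited values are raw counts per gene symbol, in 1 table for each material, and 0 of their columns lacked a sample. Per the submitters' processing notes, bcl2fastq 2.20, Bowtie and STAR were used with the build mm10. Which program counted the reads, and with which strand setting, is not given in the sources used here.

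Groups were taken from the labels. Each material was fitted alone with edgeR 4.0.16 (R 4.3.3) on all genes left by filterByExpr, with TMM scaling, and a two-sided, robust quasi-likelihood F test, adjusted over all genes tested by Benjamini-Hochberg, at a threshold of 0.05. A joint fit tested the interaction of genotype and material. Only the edgeR test within each material was tried on simulated counts. The SE of a log2 fold change is the one implied by the F statistic. Alternatives were DESeq2 1.42.0, limma voom (limma 3.58.1), RLE scaling, no filter, sex as a term, leaving out each library, and a replicate block.

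The members and gene lists (binding partners, cytoplasmic effectors, Wnt target check, dissociation genes and cell type markers) were chosen with earlier results of these data known. The text names each member that passed a test, the 2 most abundant per kb of each role class and material, those under an unadjusted p of 0.05 in both materials with the same sign, and passing partners and effectors. Others are said to have been chosen after their values were seen. The 4 Wnt target genes summed to 10.9 to 13.0 CPM in WT and 465 to 584 CPM in WT/flox progenitors, and to 12.7 to 14.1 and 28.7 to 32.9 CPM in muscle. Exon lengths are merged exons of GENCODE M21 on GRCm38, and promoters are RefSeq's on GRCm38.p6. Protein sequences were not used here.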

Additional observations from a re-analysis of the deposited data

Results flagged for a closer look

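The effect of genotype differed between sorted progenitors and whole muscle for 2 guidance genes, by the interaction test over all 11 libraries with edgeR. Such a term cannot tell a different response from dilution of progenitor RNA in the lysate. For Nrp2 the muscle minus progenitor log2 fold change was -2.77, and over 4 alternatives it ran from -2.81 to -2.55 and passed in each. For Efnb2 it was -1.74, and over the same 4 alternatives it ran from -1.78 to -1.72 and passed in each. Slit2 missed the threshold in edgeR (-2.03) and passed under DESeq2, at -2.08 (adjusted p = 0.038). Groups of 2 or 3 libraries were not searched for a library that stands apart.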

How the results depend on the processing

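Nrp2, Slit2, Efnb2 and Ephb2 passed in progenitors under all 12 alternatives, with log2 fold changes of 2.69 to 3.17, 1.92 to 2.44, 1.42 to 1.71 and 1.11 to 1.54 and adjusted p-values of at most 0.00534, 0.0235, 0.00991 and 0.0325. DESeq2 called 6 members higher, adding Ephb1 and Sema4d (log2 fold change 1.73). A count of 1 lower member in place of 0 came with sex as a term and with the replicate block (Sema3e, -0.89 in both), and leaving out 1 library gave 0 to 1 (Epha1, -1.33, without 74A2, and Robo1, -0.77, without 73C3). Over all progenitor genes the count called was 454, against 744 with DESeq2 and 262 to 483 when 1 library was left out, the lowest without 74A3 and 266 without 72B7. In muscle it was 92, against 259 with DESeq2, 139 with no filter, 178 with the replicate block and 0 to 239 when 1 library was left out: 0 without 71B5, 25 without 71B4, 207 without 73A7 and 239 without 73A5. No member was called in muscle under any of these. The sign of Slit2 in muscle turned without 73A5 and without 71B5, in a range of -0.48 to 0.88. Of the log2 fold changes recomputed, 312 kept direction and side of the threshold, 6 newly passed, 0 were lost and 2 reversed. The cause of these changes was not tested. The replicate numbers of the authors' sample tables join 74A2 with 74A1, both female, and 72B8 with 72B7, both male. They also join 73C3 of day 14 with 74A3 of day 56. Correlations of same-numbered deviations were -0.133 to 0.294 in progenitors and -0.0186 and -0.475 in muscle. With groups of 2 or 3 libraries, these cannot show whether a pairing was meant. The replicate block changed no other call of a member. Counts limit members near 1 CPM, such as Ephb2 and Slit2 in muscle.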
